A study of Homo sapiens with 9 samples.

Results

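The PDZ-LIM and LIM actin adaptor genes are 10 human genes: PDLIM1, PDLIM2, PDLIM3, PDLIM4, PDLIM5, PDLIM7, LDB3, LMO7, ZYX and FHL2. They were taken by gene symbol from tables of 58381 genes, and each symbol matched 1 row. Expression was measured by RNA-seq in TC-32, an established Ewing sarcoma cell line, and the oncogenic fusion EWSR1::FLI1 was present in every group. RFP cells (genotype pLOC RFP) received the lentiviral pLOC vector with a red fluorescent protein, ETS1-Low cells (pLOC ETS1) expressed an ETS1 cDNA at a lower level, and ETS1-High cells (pLOC ETS1) expressed it at a level like that of cells depleted of the fusion. Each of the 3 groups had 3 libraries. Cells of all groups were transduced, selected with puromycin and sorted as single cells, per the labels' protocols. The ETS1 lines are described as single cell clones. The number of clones behind a group, the clonal state of the RFP cells and the promoter that drove the cDNA are not given in the sources used here. A difference between groups therefore cannot be told apart from a difference between clones, and the spread between libraries may be technical.

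These genes encode proteins that tie signalling and adhesion proteins to actin filaments. The PDZ-LIM (ALP/Enigma) proteins use an N-terminal PDZ domain to bind alpha-actinin, the crosslinker of stress fibres and muscle Z-discs, and C-terminal LIM zinc fingers to bind kinases and other partners. PDLIM1 to PDLIM4 belong to the ALP branch with a single LIM domain, and PDLIM5, PDLIM7 and LDB3 to the Enigma branch with several. LMO7 carries a PDZ and a LIM domain and links afadin to alpha-actinin at cell junctions. Zyxin (ZYX) brings Ena/VASP proteins to focal adhesions, and FHL2 is a LIM-only protein found at adhesions and in the nucleus. EWSR1::FLI1 is known to lower the expression of actin cytoskeleton genes, zyxin among them.

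The set was chosen by the levels of PDLIM1 and LMO7 in these libraries, with their relatives and partners added, and all 3 comparisons between groups come from the same libraries. Values of the 10 genes, and whether the fit called them, are therefore given as a description and support nothing. Adjusted p-values are given only for other genes. The lists of those genes were also chosen with earlier results known, and many genes named from them were picked by their change. Their p-values are therefore descriptive too.

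The sequences upstream of 4 of the genes are shown as examples: PDLIM1 and LMO7 for the widest differences in level, PDLIM5 as the most abundant PDZ-LIM gene in RFP by FPKM, and FHL2 for its CArG box. RefSeq (GRCh38.p14) lists 17 starts for 9 of the 10 genes, and PDLIM2 had no entry. Shown are the 250 bases before the start, 5′ to 3′ on the gene's strand, and where several starts are listed, the start with the highest GC share. PDLIM1 lies at chr10:95291004-95291253 (minus strand), LMO7 at chr13:75636080-75636329 (plus strand, 1 of 5 starts), PDLIM5 at chr4:94451692-94451941 (plus strand) and FHL2 at chr2:105399052-105399301 (minus strand, 1 of 4 starts). Capitals mark GGAA, the core bound by ETS factors, on either strand in the first 3 sequences, and a CArG box, the motif bound by serum response factor (SRF), in FHL2.
PDLIM1: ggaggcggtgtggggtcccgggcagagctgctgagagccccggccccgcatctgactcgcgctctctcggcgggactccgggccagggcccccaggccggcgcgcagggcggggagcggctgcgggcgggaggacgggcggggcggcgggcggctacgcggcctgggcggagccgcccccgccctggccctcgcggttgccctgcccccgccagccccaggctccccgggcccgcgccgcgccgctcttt
LMO7: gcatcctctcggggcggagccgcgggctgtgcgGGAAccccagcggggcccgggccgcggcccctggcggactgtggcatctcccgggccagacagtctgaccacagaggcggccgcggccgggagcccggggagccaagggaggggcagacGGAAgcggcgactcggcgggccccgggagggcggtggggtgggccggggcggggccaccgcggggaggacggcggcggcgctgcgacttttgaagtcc
PDLIM5: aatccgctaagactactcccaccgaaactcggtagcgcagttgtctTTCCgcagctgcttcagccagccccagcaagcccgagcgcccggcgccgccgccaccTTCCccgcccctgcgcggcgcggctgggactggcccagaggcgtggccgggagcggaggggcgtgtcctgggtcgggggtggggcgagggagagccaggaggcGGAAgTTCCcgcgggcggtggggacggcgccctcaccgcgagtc
FHL2: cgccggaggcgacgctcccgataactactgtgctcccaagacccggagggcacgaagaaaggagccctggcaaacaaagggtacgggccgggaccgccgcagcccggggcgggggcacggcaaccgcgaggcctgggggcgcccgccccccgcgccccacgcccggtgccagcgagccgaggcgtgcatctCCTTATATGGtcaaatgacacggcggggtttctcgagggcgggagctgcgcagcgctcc

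The PDLIM1 window was 82.8% G and C with 35 CpG pairs, against medians of 58.0% and 11 over all 35116 listed starts. It held no GGAA on either strand, whereas 92.7% of all windows of this length held at least 1. The PDLIM4 window held none either, nor did 1 of the LMO7 and 1 of the FHL2 windows, so 13 of the 17 windows held a match. The LMO7 window shown held 2, and the PDLIM5 window held 4, as did that of ZYX. Longer ETS forms, CCGGAAGT (in 3.42% of all windows) and the tandem GGAAGGAA (3.06%), were in 0 of the 17 windows. A CArG box stood in 3 of 4 FHL2 windows and both LDB3 windows, against 1.16% of all windows. The AP-1 motif TGANTCA was also in both LDB3 windows, against 6.57%. Both strands were searched, the LDB3 windows overlap each other, as do some of FHL2 and LMO7, and a match of letters is neither a site nor a cause.

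Library totals ran from 39484704 to 46654734 expected counts. ETS1 counts followed the labels, at 1.81 to 2.15 CPM (expected counts scaled to library size) in RFP, 10.3 to 10.9 in ETS1-Low and 18.2 to 19.7 in ETS1-High. Of 8 Ewing sarcoma markers, including CD99, NKX2-2 and NR0B1, all 8 had a mean above 1 CPM in each group. Their summed level was 2580 to 2680 CPM in RFP, 3860 to 3920 in ETS1-Low and 3930 to 3940 in ETS1-High, and its part in the results was not tested. Most of this sum was CCND1, a cyclin gene, at 1548 ± 42.4 CPM in RFP, 2518 ± 20.3 in ETS1-Low and 2498 ± 15.1 in ETS1-High. The 4 epithelial markers summed to 78.1 to 82.5 CPM in RFP, 156 to 165 in ETS1-Low and 110 to 112 in ETS1-High, nearly all of it KRT18, and their part in the results was not tested. Of the 10 genes, 9 entered the edgeR fit over 17235 genes, and LDB3 was too low. Levels are CPM with TMM-scaled library sizes, given as mean ± SD of 3 libraries. Log2 fold changes come from that fit, and a gene counts as called at a Benjamini-Hochberg adjusted p below 0.05 over all genes tested.

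**Figure D1:**
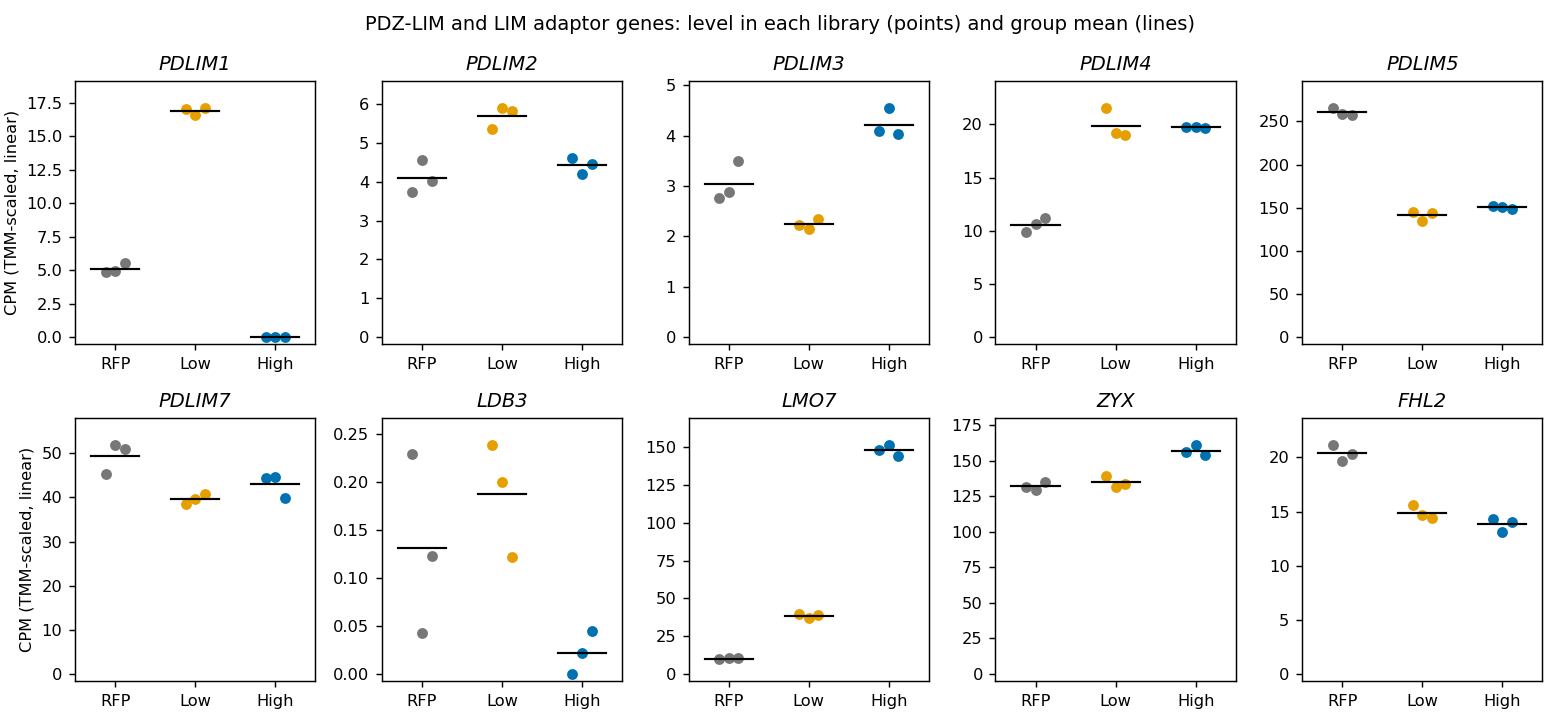
Level of each of the 10 genes in CPM (TMM-scaled, linear axes that differ between panels) in the 3 RFP, 3 ETS1-Low and 3 ETS1-High libraries; points are libraries and lines group means. PDLIM1 is at 0 in ETS1-High and highest in ETS1-Low, LMO7 is highest in ETS1-High, and PDLIM5 is highest in RFP.

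PDLIM1 (CLP36), an ALP protein that binds alpha-actinin on stress fibres, lay above RFP in ETS1-Low and below it in ETS1-High. Its expected counts were 234, 232 and 270 in the RFP libraries, 644, 746 and 699 in ETS1-Low, and 0 in each of the 3 ETS1-High libraries. That is 5.12 ± 0.36 CPM in RFP and 16.9 ± 0.27 CPM in ETS1-Low, with no overlap between groups. The ETS1-Low level was 3.30-fold that of RFP (log2 fold change 1.72, SE 0.08). A count of 0 allows up to 3 counts per library, or a mean of 0.07 CPM, counting error only. In bulk RNA, fewer expressing cells and less RNA per cell cannot be told apart. Against this floor PDLIM1 was at least 73.0-fold lower in ETS1-High than in RFP and at least 241.3-fold lower than in ETS1-Low.

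PDLIM1 lies on chromosome 10 (95237572 to 95291012, minus strand, GENCODE v44 on GRCh38) and no annotated gene overlaps it. The 8 other tested genes that start within 1 Mb of it were all detected in ETS1-High, the lowest of them at 3.31 CPM. HELLS, the nearest tested coding gene on the lower side, had 78.9 ± 3.16 CPM in RFP, 96.7 ± 3.26 in ETS1-Low and 70.3 ± 6.08 in ETS1-High. On the other side ALDH18A1 had 122.4 ± 5.92 CPM in RFP, 109.7 ± 0.76 in ETS1-Low and 99.2 ± 1.64 in ETS1-High. Unlike HELLS, it was highest in RFP. Within 5 Mb, 2 of 56 genes had a positive log2 fold change between the ETS1 groups, and the median of the 56 was -0.37. Against RFP this local median was -0.28 in ETS1-High and 0.14 in ETS1-Low. The neighbours were thus lower in ETS1-High by far less than PDLIM1, which alone among the tested genes within 1 Mb stood at 0.

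LMO7 had the opposite order of the ETS1 groups and was higher in each step across the 3 groups. Its CPM was 9.88, 10.6 and 10.4 in RFP, 39.95, 36.9 and 39.3 in ETS1-Low, and 148.0, 151.4 and 144.5 in ETS1-High. No library of a group overlapped another group. Against RFP its log2 fold change was 1.91 (SE 0.05) in ETS1-Low and 3.85 (SE 0.04) in ETS1-High. ETS1-High was above ETS1-Low by 1.94 (SE 0.04), so the ratios of both steps were nearly alike, at 3.76-fold and 3.83-fold. Its expected counts were not whole in any of the 9 libraries, so some reads were divided between genes. A long noncoding RNA on the same strand (ENSG00000261553) overlaps it and had 1.08, 1.45 and 2.19 CPM in the 3 groups.

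The gene closest to LMO7 in pattern over the 9 libraries was a genomic neighbour. By root mean square distance of centred log2 CPM, TBC1D4 was nearest of 12400 genes averaging 100 counts or more, at 0.07. EDNRA (0.09) followed. TBC1D4 encodes a Rab GTPase-activating protein of insulin-regulated glucose transport, and EDNRA an endothelin receptor. TBC1D4 had 9.61 ± 0.73, 37.1 ± 0.62 and 132.2 ± 1.58 CPM in the order RFP, ETS1-Low, ETS1-High, beside 10.3 ± 0.37, 38.7 ± 1.61 and 148.0 ± 3.41 CPM for LMO7.

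TBC1D4 starts at -138.3 kb relative to the LMO7 start and is transcribed away from it. COMMD6 and UCHL3 start between them, 71.0 kb from LMO7, and did not share the pattern. UCHL3, a ubiquitin hydrolase gene, had 16.7 ± 1.74, 15.0 ± 0.73 and 14.0 ± 0.54 CPM, and COMMD6 had 23.6 ± 0.86, 19.7 ± 0.94 and 23.9 ± 0.69 CPM. Among 19 genes within 5 Mb the local median log2 fold change against RFP was -0.25 for ETS1-Low and -0.08 for ETS1-High. The high levels of LMO7 and TBC1D4 were thus not seen in COMMD6 and UCHL3. The noncoding RNA ENSG00000261553, which starts at -70.7 kb and overlaps LMO7 on its strand, had the order of LMO7 with smaller log2 fold changes, 0.44 in ETS1-Low and 1.02 in ETS1-High against RFP.

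**Figure D2:**
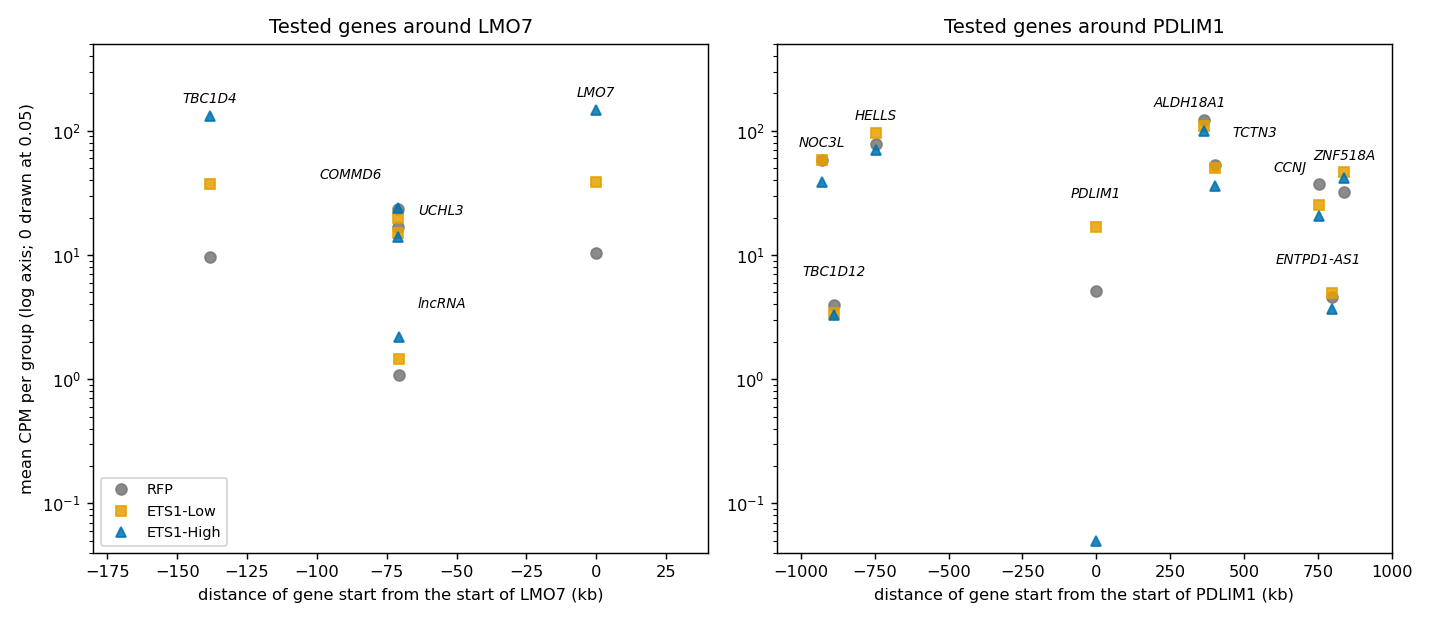
Mean CPM per group (log axis, 0 drawn at 0.05) of the tested genes within 1 Mb of LMO7 (left) and PDLIM1 (right), by distance of each gene's start from that of LMO7 or PDLIM1 in kb. TBC1D4 and LMO7 show the same wide spacing of the 3 groups while COMMD6 and UCHL3 between them do not and ENSG00000261553 has the same order with a narrower spacing, and PDLIM1 is the 1 gene at 0 in ETS1-High in its window.

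For PDLIM1 the distances depend on the 0.1 CPM added before taking logs, since 3 of its 9 libraries are at 0, and their ranks are given with that limit. The nearest were RGS7BP at 0.99, C4orf32 at 1.18 and ST8SIA5, a sialyltransferase gene, at 1.51. In the same order of groups, C4orf32 had 2.25 ± 0.16, 7.69 ± 0.16 and 0.16 ± 0.05 CPM, and ST8SIA5 had 12.01 ± 0.63, 43.6 ± 2.13 and 2.17 ± 0.24 CPM. Both were highest in ETS1-Low and lowest in ETS1-High, as PDLIM1 was. RGS7BP had 67.0 ± 1.16 CPM in RFP and 67.4 ± 1.35 CPM in ETS1-Low, so it shared with PDLIM1 the low ETS1-High level of 1.90 ± 0.17 CPM but not the higher level in ETS1-Low.

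No other ALP gene had the full order of groups of PDLIM1, though PDLIM2 was also highest in ETS1-Low. PDLIM4 (RIL), which binds alpha-actinin on stress fibres, was higher in both ETS1 groups by a similar amount. It had 9.85, 10.7 and 11.2 CPM in RFP, 21.5, 19.2 and 19.0 in ETS1-Low, and 19.7 in each ETS1-High library. The ETS1 groups overlapped each other and both lay above RFP, with log2 fold changes of 0.91 (SE 0.06) in ETS1-Low and 0.90 (SE 0.06) in ETS1-High. Between the ETS1 groups the 95% interval ran from -0.13 to 0.10. P4HA2 overlaps PDLIM4 on the opposite strand, and whether the counting used strand is not given in the sources used here.

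PDLIM3 (ALP), known from the Z-discs of skeletal muscle, was low throughout and lay on opposite sides of RFP in the ETS1 groups. Its counts were 133, 135 and 171 in RFP, 84, 97 and 96 in ETS1-Low, and 161, 204 and 180 in ETS1-High. On the CPM scale the groups did not overlap, at 3.05 ± 0.40, 2.24 ± 0.10 and 4.22 ± 0.28. Its log2 fold changes were -0.45 (SE 0.13) in ETS1-Low and 0.47 (SE 0.12) in ETS1-High, both against RFP, and 0.91 (SE 0.13) between the ETS1 groups. The 22 genes within 5 Mb on chromosome 4 had local medians of 0.59 in ETS1-Low and 0.61 in ETS1-High against RFP. PDLIM3 was thus below its neighbourhood by 1.03 in ETS1-Low and by 0.15 in ETS1-High. CCDC110, the closer neighbour at 63.8 kb, was very low and had another order, at 0.08, 0.27 and 0.49 CPM. SORBS2, the nearest tested coding gene on the other side and itself an actin adaptor gene, had the order of PDLIM3, at 3.26 ± 0.20, 1.37 ± 0.11 and 4.55 ± 0.18 CPM.

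PDLIM2 (Mystique), which also acts in the nucleus in turnover of the p65 subunit of NF-kappa B, was highest in ETS1-Low. It had 3.72, 4.54 and 4.03 CPM in RFP, 5.34, 5.88 and 5.81 in ETS1-Low, and 4.595, 4.20 and 4.46 in ETS1-High. The ETS1-High libraries overlapped RFP, and ETS1-Low overlapped neither. Log2 fold changes were 0.47 (SE 0.10) in ETS1-Low against RFP and -0.36 (SE 0.10) in ETS1-High against ETS1-Low. The ETS1-High to RFP difference was 0.11 (95% interval -0.09 to 0.31). The local median around PDLIM2, over 41 genes, was -0.32 in ETS1-High against ETS1-Low, close to the value of PDLIM2 itself. Against RFP it was 0.02 in ETS1-Low and -0.36 in ETS1-High, and PDLIM2 lay above it by 0.45 and 0.47. SORBS3, the nearest tested coding gene on the lower side, had the order of PDLIM2, at 55.2 ± 1.62, 98.8 ± 1.23 and 71.8 ± 3.77 CPM. C8orf58, on the other side, did not, at 6.66 ± 0.53, 7.76 ± 0.69 and 7.78 ± 0.42 CPM. A coding gene on the same strand (ENSG00000248235), not tested, overlaps PDLIM2. Expected counts of PDLIM2 were not whole in 4 libraries.

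The Enigma genes that were expressed were lower in both ETS1 groups than in RFP. PDLIM5 (ENH), which binds alpha-actinin and protein kinase C, had 265.0, 258.8 and 257.3 CPM in RFP, 145.4, 135.3 and 144.5 in ETS1-Low, and 151.6, 151.0 and 148.9 in ETS1-High. Every ETS1 library lay below every RFP library, with log2 fold changes of -0.88 (SE 0.03) in ETS1-Low and -0.79 (SE 0.03) in ETS1-High. ETS1-High was above ETS1-Low by only 0.09 (SE 0.03), and without ETS1-Low replicate 2 this difference was 0.055 and no longer called. SMARCAD1, the nearest tested coding gene on the lower side, had 96.0 ± 4.27, 63.6 ± 2.13 and 69.8 ± 0.94 CPM, the same order of groups. BMPR1B, on the other side, had another order, at 9.31 ± 0.13, 10.8 ± 0.64 and 5.46 ± 0.32 CPM. Only 8 genes within 5 Mb were expressed well enough for a local median, which was -0.02 in ETS1-Low and -0.21 in ETS1-High against RFP.

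PDLIM7 (Enigma), known to bind receptor tyrosine kinases and tropomyosin, had 45.4, 51.8 and 51.0 CPM in RFP, 38.5, 39.5 and 40.8 in ETS1-Low, and 44.4, 44.7 and 39.8 in ETS1-High. Both ETS1 groups lay below RFP and overlapped each other. Log2 fold changes were -0.32 (SE 0.05) in ETS1-Low and -0.20 (SE 0.05) in ETS1-High. The 74 genes within 5 Mb on chromosome 5 had local medians of -0.38 and -0.35, so PDLIM7 differed from its neighbourhood by 0.06 and 0.15 only. LDB3 (ZASP), the heart and skeletal muscle member, had 11, 2 and 6 counts in RFP, 9, 9 and 5 in ETS1-Low, and 0, 1 and 2 in ETS1-High. At these counts no fold change is given. Without the filter on low counts LDB3 was called lower in ETS1-High than in RFP and than in ETS1-Low.

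PDLIM3 and LDB3 are muscle genes, so the levels of muscle markers are given beside them. The summed level of 8 skeletal muscle markers was 43.9 to 46.3 CPM in RFP, 58.8 to 64.0 in ETS1-Low and 49.4 to 51.2 in ETS1-High. TNNT1 made up most of it, at 41.7, 58.5 and 47.2 CPM, and only TNNT1 and MYH3 had a mean above 1 CPM. MYOD1, MYOG and MYH8 had 0 counts in both ETS1 groups, and MYH8 also in RFP.

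**Figure D3:**
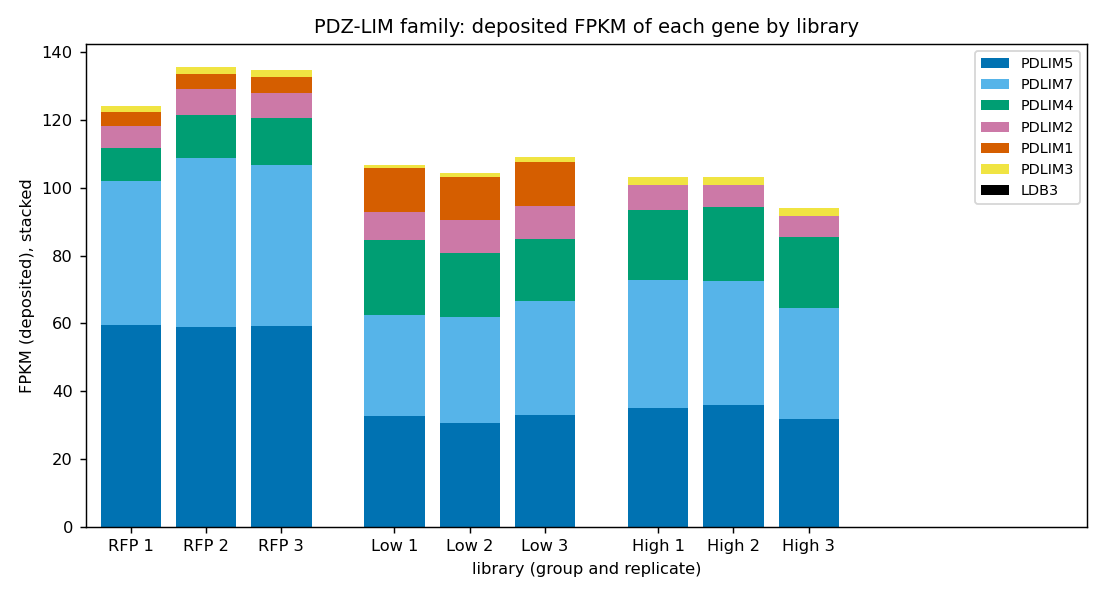
Deposited FPKM of the 7 PDZ-LIM family genes stacked for each of the 9 libraries (linear axis from 0). PDLIM5 and PDLIM7 make up most of each bar, the bars are lower in the ETS1 groups, and PDLIM1 takes 12.1% on average in ETS1-Low and 0 in ETS1-High.

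Levels of different genes were set side by side in FPKM, which is scaled to gene length. The 7 PDZ-LIM genes summed to 131.5 ± 6.43 FPKM in RFP, 106.7 ± 2.37 in ETS1-Low and 100.2 ± 5.32 in ETS1-High. PDLIM5 made up 45.2% of that sum in RFP, 30.0% in ETS1-Low and 34.1% in ETS1-High. PDLIM7 held 35.4%, 29.6% and 35.7%. PDLIM4 went from 9.19% in RFP to 18.6% and 21.1%, and PDLIM1 from 3.32% to 12.1% in ETS1-Low and 0% in ETS1-High. PDLIM5 and PDLIM7 thus remained the members with the highest FPKM in each group, while the sum was lower in both ETS1 groups. On FPKM the log2 fold changes of all genes against RFP also shifted by a median of -0.10 to -0.14 from those on counts.

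ZYX had the highest FPKM of the 10 genes in each group, at means of 70.0 (68.8 to 71.5 over libraries), 65.6 (64.4 to 67.4) and 77.0 (74.8 to 78.6). In RFP the order below it was PDLIM5, PDLIM7, FHL2, PDLIM4, PDLIM2, LMO7, PDLIM1, PDLIM3 and LDB3, and no neighbours in that order overlapped. LMO7 stood below PDLIM2 in RFP with 5.41 ± 0.22 FPKM, and next to ZYX in ETS1-High with 61.0 ± 2.21 FPKM. PDLIM5 and PDLIM7 did not differ beyond their spread in ETS1-Low (32.0 ± 1.36 and 31.6 ± 1.86 FPKM) or in ETS1-High (34.2 ± 2.21 and 35.8 ± 2.63 FPKM). FPKM of PDLIM4 ranged from 9.74 to 13.9 in RFP, a wider spread than its CPM.

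Zyxin differed little between RFP and ETS1-Low and was somewhat higher in ETS1-High. ZYX had 131.7, 129.7 and 135.2 CPM in RFP, 139.3, 131.2 and 133.6 in ETS1-Low, and 156.3, 160.9 and 154.1 in ETS1-High. RFP and ETS1-Low overlapped, with a log2 fold change of 0.03 (95% interval -0.04 to 0.09). ETS1-High lay above both, by 0.25 (SE 0.03) against RFP and 0.22 (SE 0.03) against ETS1-Low. EPHA1 overlaps ZYX on the opposite strand and had 1.99, 0.21 and 0.17 CPM in the 3 groups.

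FHL2 was lower in both ETS1 groups, where the local median of its neighbourhood was higher than in RFP. It had 21.1, 19.7 and 20.3 CPM in RFP, 15.6, 14.7 and 14.4 in ETS1-Low, and 14.3, 13.2 and 14.1 in ETS1-High, with no overlap between groups. Log2 fold changes against RFP were -0.45 (SE 0.06) in ETS1-Low and -0.56 (SE 0.06) in ETS1-High. Between the ETS1 groups the difference was -0.11 (95% interval -0.22 to 0.01) and was not called, although their libraries did not overlap. The 24 genes within 5 Mb on chromosome 2 had local medians of 0.21 and 0.49 against RFP, so FHL2 stood below them by 0.66 and 1.05. NCK2, the nearest tested coding gene on the higher side, was lower in both ETS1 groups too. It had 67.35 ± 1.13 CPM in RFP, 36.5 ± 0.57 in ETS1-Low and 39.92 ± 1.08 in ETS1-High. C2orf49, on the other side, had 30.25 ± 0.48, 29.22 ± 0.68 and 32.63 ± 0.16 CPM.

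**Figure D4:**
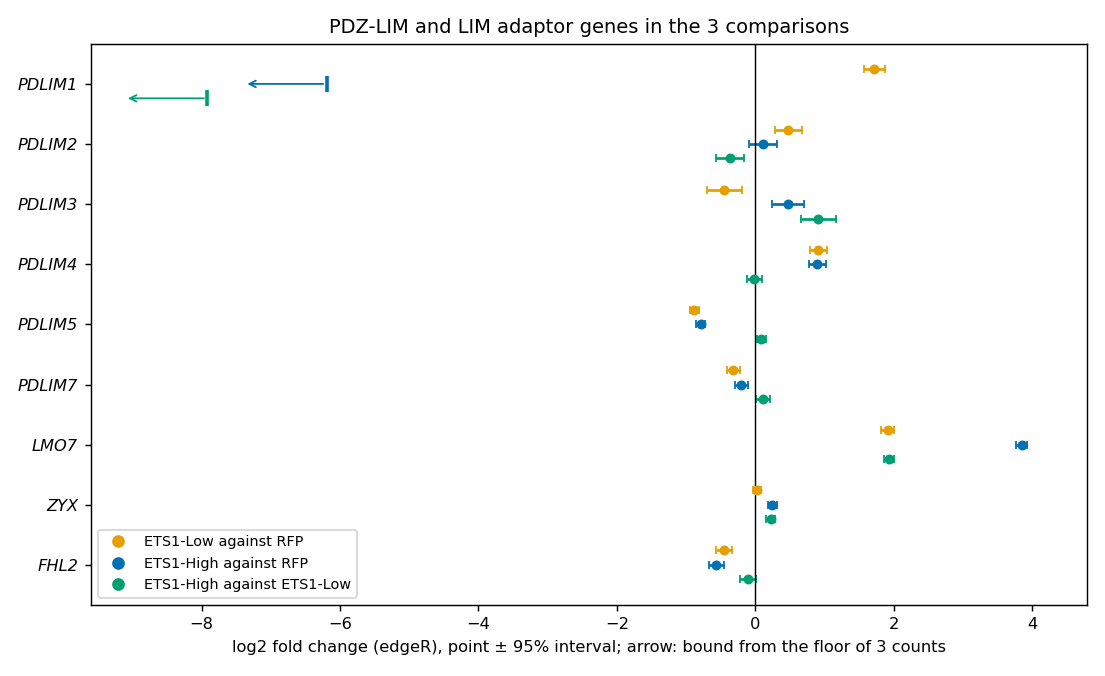
Log2 fold change (edgeR) of the 9 tested genes in the 3 comparisons, with points for estimates and bars for 95% intervals; arrows mark the PDLIM1 bounds from the floor of 3 counts. LMO7 lies far to the right in each comparison, PDLIM5 and FHL2 lie left of 0 against RFP in both ETS1 groups, and PDLIM3 lies on opposite sides of 0.

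Counted together, 8 of the 9 tested genes were called in ETS1-High against RFP, 4 higher and 4 lower, where 74.2% of all genes were called (37.0% higher, 37.2% lower). In ETS1-Low, also against RFP, 8 of 9 were called with the same split, beside 74.1% of all genes (37.9% higher, 36.2% lower). Between the ETS1 groups 6 of 9 were called, 4 higher and 2 lower in ETS1-High, against 59.2% (29.9% higher, 29.3% lower). Groups did not overlap for 8, 8 and 7 of the 9 in these comparisons, where 75.5%, 76.0% and 63.2% of all genes did not overlap. A called change of at least 2-fold was seen for 2 of 9 in each comparison, PDLIM1 and LMO7, against 21.0%, 20.6% and 9.74% of all genes. Median log2 fold changes of the 9 genes were 0.11, 0.03 and 0.09, and those of all genes -0.01, 0.01 and 0.00. Both comparisons with RFP use the same RFP libraries, and nothing is read from these counts, since the genes were chosen with these comparisons known.

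The partners of these proteins were then examined, beginning with alpha-actinins and other stress fibre or Z-disc genes. Of 27 listed genes 20 entered the fit. Against RFP, ETS1-High had 14 higher and 5 lower, in ETS1-Low 12 and 8, and between the ETS1 groups 12 and 4, with median log2 fold changes of 0.31, 0.19 and 0.27. In these comparisons 74.2%, 74.1% and 59.2% of all genes were called, with medians of -0.01, 0.01 and 0. ACTN4, a non-muscle alpha-actinin, rose from 277.0 ± 5.68 CPM in RFP to 429.3 ± 12.4 in ETS1-Low and 547.4 ± 18.9 in ETS1-High (log2 fold change 0.98 in ETS1-High, edgeR adjusted p 1.39e-32). ACTN1, the other non-muscle form, rose from 114.6 ± 3.56 to 132.5 ± 3.21 and 200.2 ± 7.03 CPM (0.80, adjusted p 3.43e-28, edgeR). These binding partners of the PDZ domain were thus higher in both ETS1 groups. In the same cells PDLIM5 and PDLIM7 were lower than in RFP, and PDLIM4 and LMO7 were higher. A link between these levels was not tested.

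The tropomyosins TPM4 and TPM1, which coat actin filaments, rose as well, while TPM2 was lower in ETS1-Low (log2 fold change -0.35, adjusted p 3.11e-15, edgeR). TPM4 rose from 293.8 ± 4.87 CPM in RFP to 428.6 ± 11.6 and 596.8 ± 16.2 CPM in ETS1-Low and ETS1-High (1.02 in ETS1-High, adjusted p 8.7e-34, edgeR). TPM1 rose from 46.1 ± 2.30 to 63.1 ± 0.15 and 93.0 ± 1.90 CPM (1.01, adjusted p 1.22e-30, edgeR). TAGLN2, a calponin-related actin binder, fell from 397.2 ± 4.97 to 267.5 ± 2.49 and 239.9 ± 7.41 CPM (-0.73 in ETS1-High, adjusted p 9.26e-28, edgeR). FLNC, the muscle filamin, was lower by 0.27 in ETS1-High (533.4 ± 8.96 CPM in RFP and 442.4 ± 22.6 CPM in ETS1-High, adjusted p 1.6e-10, edgeR).

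Zyxin relatives and Ena/VASP proteins split by direction. All 9 listed genes were tested, and 5 were higher and 2 lower in ETS1-High against RFP, 4 and 5 in ETS1-Low, and 5 and 2 between the ETS1 groups. Medians were 0.10, -0.30 and 0.14, and 74.2%, 74.1% and 59.2% of all genes were called in these comparisons. On the FPKM values the first split was 3 and 3. TRIP6, a zyxin relative, rose from 85.1 ± 1.81 CPM in RFP to 124.3 ± 2.35 in ETS1-Low and 117.8 ± 3.40 in ETS1-High (0.47, adjusted p 1.11e-18, edgeR). VASP rose from 41.7 ± 0.70 to 53.7 (51.7 to 56.1 over libraries) and 56.1 ± 3.01 CPM (0.43, adjusted p 5.37e-14, edgeR). Its relatives ENAH and EVL were lower. ENAH fell from 381.0 ± 7.12 to 260.7 ± 5.51 and 286.7 ± 3.79 CPM (-0.41, adjusted p 5.66e-18, edgeR), and EVL from 57.4 ± 3.47 to 24.9 ± 0.81 and 31.2 ± 0.98 CPM (-0.88, adjusted p 2.16e-24, edgeR).

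The relatives of FHL2 went the other way from it. On counts FHL1 and FHL3 were both called higher in all 3 comparisons, though only 1 of them in ETS1-Low on FPKM, and FHL5 was too low to test. Among all genes 37.0% were called higher in ETS1-High against RFP, 37.9% in ETS1-Low against RFP and 29.9% between the ETS1 groups. FHL1, abundant in muscle, had 83.6 ± 2.43 CPM in RFP, 92.3 ± 1.29 in ETS1-Low and 237.8 ± 3.68 in ETS1-High (1.51 in ETS1-High, adjusted p 1.14e-40, edgeR). FHL3 had 19.4 ± 1.26, 27.3 ± 0.38 and 31.8 ± 0.50 CPM (0.71, adjusted p 9.83e-19, edgeR). Of the tested FHL genes, FHL2 was thus the 1 that was lower in the ETS1 groups.

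Of 31 other LIM-domain cytoskeletal genes 29 entered the fit, and the comparisons below called 74.2%, 74.1% and 59.2% of all genes. Against RFP, ETS1-High had 14 higher and 11 lower (10 and 12 on FPKM with a pseudocount of 0.1), in ETS1-Low 12 and 11, and between the ETS1 groups 16 and 7, with medians of 0.12, 0.10 and 0.21. LIMS2 (PINCH2), which joins integrin-linked kinase to focal adhesions, rose from 2.07 ± 0.08 CPM in RFP to 5.49 ± 0.39 and 27.9 ± 1.69 (3.75 in ETS1-High, adjusted p 1.71e-39, edgeR). LIMA1 (EPLIN), an actin crosslinker at junctions and stress fibres, rose from 82.5 ± 1.22 to 287.3 ± 3.51 and 336.7 ± 5.74 CPM (2.03, adjusted p 1.85e-46, edgeR). LIMCH1, an activator of non-muscle myosin II, fell from 29.7 ± 0.58 CPM to 0.19 ± 0.03 in ETS1-Low and 0.80 ± 0.08 in ETS1-High (-5.21 in ETS1-High, adjusted p 1.02e-42, edgeR). CRIP2 fell from 33.9 ± 0.89 to 13.0 ± 0.11 and 12.9 ± 1.06 CPM (-1.40, adjusted p 1.78e-28, edgeR).

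**Figure D5:**
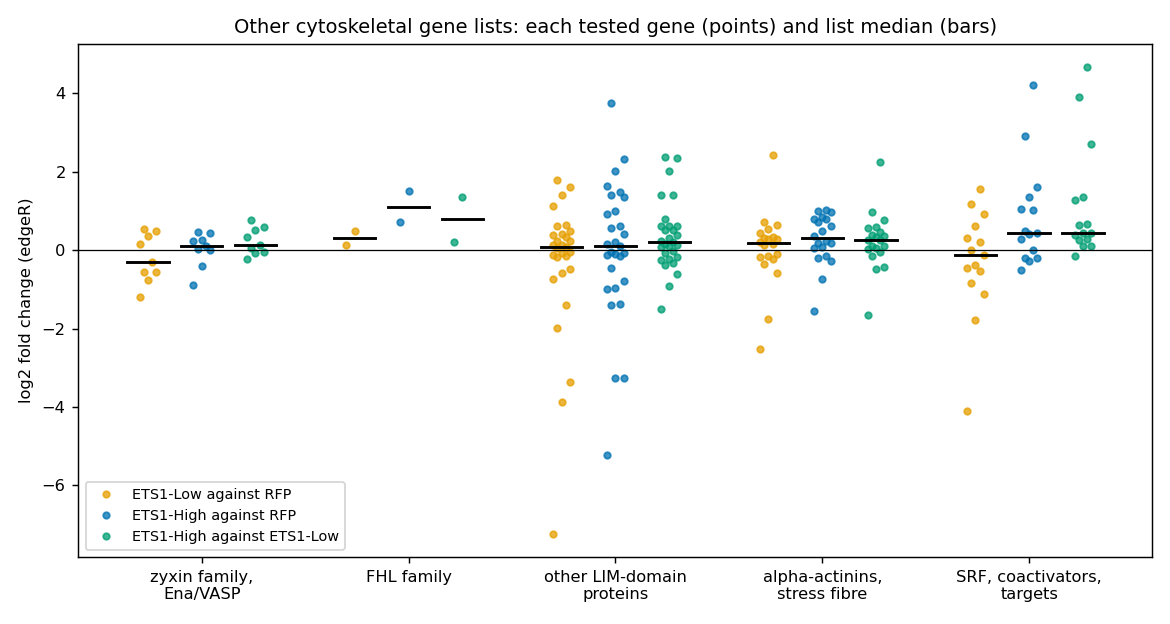
Log2 fold change (edgeR) of each tested gene of 5 cytoskeletal lists in the 3 comparisons; points are genes and black bars list medians. The bar of the SRF list lies below 0 in ETS1-Low against RFP (-0.11) and above 0 in the other comparisons (0.45 and 0.44).

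SRF and its actin-responsive coactivators drive many cytoskeletal genes, FHL2 among the known ones. All 15 listed genes entered the fit, and the comparisons below called 74.2%, 74.1% and 59.2% of all genes. Against RFP, ETS1-High had 10 higher and 3 lower, in ETS1-Low 6 and 7, and between the ETS1 groups 14 and 1, with medians of 0.45, -0.11 and 0.44. MYH9, non-muscle myosin heavy chain, rose from 341.0 ± 4.49 CPM in RFP to 641.9 ± 18.5 and 867.9 ± 27.1 (1.35 in ETS1-High, adjusted p 9.9e-39, edgeR). CCN1, a secreted matrix protein gene, rose from 28.8 ± 0.70 to 84.5 ± 4.88 and 218.4 ± 8.88 CPM (2.92, adjusted p 5.64e-41, edgeR). ACTA2, smooth muscle actin, had 43.7 ± 0.76, 12.7 ± 0.27 and 31.0 ± 3.23 CPM and was lower in ETS1-High by 0.49 (adjusted p 5.99e-11, edgeR). MRTFB, a coactivator of SRF, fell from 54.5 ± 1.42 CPM in RFP to 37.5 ± 2.04 in ETS1-Low and 45.2 ± 2.14 in ETS1-High (-0.27 in ETS1-High, adjusted p 3.93e-08, edgeR). MRTFA, its other listed coactivator of this kind, rose in ETS1-High, with a log2 fold change against RFP of 0.45 (adjusted p 2.57e-12, edgeR). SRF itself did not pass in ETS1-High against RFP (log2 fold change 0.00, adjusted p 0.922, edgeR). SRF was called lower in ETS1-Low against RFP (-0.11, adjusted p 0.005) and higher in ETS1-High than ETS1-Low (0.11, adjusted p 0.00526, edgeR).

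The 6 smooth muscle and myofibroblast markers, of which ACTA2 and ACTG2 also stand in the SRF list, summed to 52.6 to 56 CPM in RFP, 15.7 to 16.3 in ETS1-Low and 42.4 to 50.3 in ETS1-High. ACTA2 and TAGLN made up most of this. MYH11, a defining marker, was at 0.05 CPM or less on average in each group, and their part in the list's values was not tested.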

How the data were processed

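The authors deposited RSEM expected counts per gene and RSEM FPKM values, per the file headers and names. Per the submitters' processing notes, cutadapt 4.4, STAR 2.7.3, featureCounts (Subread 2.0.3) and limma 3.38.3 were among the tools and the build was GRCh38; their roles, the annotation and the use of strand are not given in the sources used here. Libraries were stranded mRNA libraries without molecular identifiers, per the labels' protocols. Columns L and H were matched to ETS1-Low and ETS1-High by name.

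Expected counts divide shared reads and were rounded before testing with edgeR 4.0.16 (R 4.3.3; TMM, filterByExpr by group, glmQLFit with robust estimation, group as the only factor, all 9 libraries), checked on simulated data. Replicate libraries differed beyond sampling noise (chi-square per gene 2.66 to 5.19, where noise gives about 1). Positions come from GENCODE v44, and local medians from tested genes with a mean log2 CPM above 1 that start within 5 Mb, the gene itself left out. Deposited FPKM values served to compare genes by length and, with limma 3.58.1, as an alternative.

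The 10 genes and the gene lists were chosen with earlier results of these data known. Named partners are ACTN1, ACTN4, VASP and ENAH, and per list up to 2 called rises and 2 called falls of largest size in ETS1-High against RFP, averaging 100 counts or more, without overlap between groups. For PDLIM1 and LMO7 the nearest genes in pattern are named, of which 1 is not reported here. Genes named as neighbours, SRF, MRTFA, TPM2 and the overlapping genes were added after their values were seen. Of 85 list genes all 85 were found, 4 under older symbols. Other alternatives were DESeq2 1.42.0, other size factors and filters, the replicate number as a block, the compared groups alone and leaving out each library.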

Additional observations from a re-analysis of the deposited data

Results flagged for a closer look

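Genes are given here because the ETS1-High and ETS1-Low effects against the same RFP libraries differed from each other in the edgeR fit, a difference that equals ETS1-High against ETS1-Low. As the genes were chosen with that comparison in view, the values are descriptive. PDLIM1 was at least 241.3-fold lower in ETS1-High than in ETS1-Low. LMO7 was higher by 1.94 on the log2 scale, PDLIM3 by 0.91, ZYX by 0.22 and PDLIM5 by 0.09. The value for PDLIM2 was -0.36. PDLIM1 and PDLIM3 lay on opposite sides of RFP in the ETS1 groups, in opposite order.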

How the results depend on the processing

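Across the alternatives, 478 of 510 log2 fold changes of the 9 tested genes kept their direction and their side of the threshold. None of the reversals concerned a difference called on the counts. PDLIM2 in ETS1-High against RFP turned to -0.0926, -0.1041 and -0.0926 on the FPKM values (pseudocount 1, pseudocount 0.1, and pseudocount 1 without a filter). ZYX in ETS1-Low against RFP turned to -0.0238 with upper-quartile factors and to -0.0924, -0.0936 and -0.0924 on the same FPKM settings, where it was called. FPKM moved the median of all genes by -0.10 to -0.14 against RFP, and the ZYX values are smaller in size than the shift in that comparison. PDLIM4 between the ETS1 groups turned to 0.0008 with DESeq2-style size factors, 0.0005 with DESeq2, 0.093, 0.0973 and 0.093 on FPKM, and ranged from -0.0418 (without ETS1-Low replicate 3) to 0.0469 (without ETS1-Low replicate 1) on leaving out a library. PDLIM7 between the ETS1 groups was not called and passed in 13 alternatives. PDLIM5 between the ETS1 groups lost its call on FPKM, and PDLIM3 in ETS1-High against RFP lost its call in 2 of 3 FPKM settings. The cause was not tested.

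Leaving out each library in turn gave 8 to 9 called of the 9 or 10 genes then tested in ETS1-High against RFP, 8 in ETS1-Low against RFP and 6 to 8 between the ETS1 groups. The count of 9 comes from LDB3, which then passed the filter; PDLIM2 was not called in ETS1-High against RFP on leaving out any library. Alternatives for the lists were added after seeing the data. The FHL list fell from 2 calls to 1 in ETS1-Low against RFP on each FPKM setting, and the zyxin list from 7 to 4 between the ETS1 groups on FPKM without a filter. FPKM without a filter gave 38.1% higher calls over all genes in ETS1-High against RFP and 36.5% in ETS1-Low against RFP, beside 49.8% and 51.2% on counts. Other LIM-domain genes split 10 higher and 12 lower in ETS1-High against RFP with a pseudocount of 0.1, and the zyxin list split 6 and 0 between the ETS1 groups on filtered FPKM and 5 and 1 with DESeq2-style size factors.

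Same-numbered libraries of different groups did not deviate together (r from -0.029 to 0.028), and 3 of 9 correlated best with their own number, so the numbers were not taken to pair libraries. With the replicate block 8, 8 and 7 of the 9 genes were called, and the added call between the ETS1 groups was PDLIM7. Without a filter on low counts 9, 8 and 8 of 10 genes were called, with LDB3 called lower in ETS1-High against both other groups. LDB3 had 11 counts or fewer per library, so its values are limited by depth.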
